A study of Mus musculus with 6 samples.

Results

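Dendritic cells are rare in a tumour, and in bulk tissue they are read through a small set of genes that mark the lineage, its subsets or its mature state. Here 9 such genes were followed, each taken by its gene symbol from the deposited table, which lists 34745 genes. They comprised Flt3 and Zbtb46 for the lineage, Clec9a, Batf3 and Irf8 for the type 1 conventional subset, Cd209a and Irf4 for the type 2 conventional and monocyte-derived cells, Siglech for plasmacytoid cells and Fscn1 for mature cells. All 9 were detected, with between 158 (Cd209a) and 22727 (Irf8) reads summed over 6 libraries.

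The tumours grew from Hep1-6, a mouse hepatoma line, injected under the skin of C57BL/6J mice, an inbred strain with an intact immune system. Of the 6 tumours, 3 came from mice fed a high cholesterol diet (HCD) and 3 from mice fed a normal diet (ND), and both groups received the same line. Diet composition, feeding time, sex and age are not given in the sources used here, and whether the 3 tumours of a group grew in 3 different mice is not stated either. The p-values therefore reflect only how far these samples scatter, which may be partly technical. Values are in FPKM, fragments per kilobase of gene length scaled to library size. The samples are named HCD 1 to HCD 3 and ND 1 to ND 3.

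As background, conventional dendritic cells arise from bone marrow precursors that need the cytokine FLT3L and its receptor FLT3. The type 1 subset depends on the transcription factors IRF8 and BATF3 and cross-presents antigen from dead cells to CD8 T cells. The type 2 subset depends more on IRF4 and presents mainly to CD4 T cells, while plasmacytoid cells are known for type I interferon secretion. In tumours the type 1 subset is studied for its part in priming cytotoxic T cells.

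The regulatory sequences of 4 members linked to the conventional subsets are shown because their start regions differ in make-up. Each line gives 250 bases that end just before a RefSeq transcription start on GRCm38.p6, read along the gene's strand, with the letters TATAAA in capitals where found on either strand.
Clec9a: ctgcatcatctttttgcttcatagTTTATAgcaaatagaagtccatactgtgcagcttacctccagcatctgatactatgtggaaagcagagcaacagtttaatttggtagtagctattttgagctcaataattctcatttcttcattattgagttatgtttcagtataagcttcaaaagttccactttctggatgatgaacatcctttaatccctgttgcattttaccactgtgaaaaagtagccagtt
Batf3: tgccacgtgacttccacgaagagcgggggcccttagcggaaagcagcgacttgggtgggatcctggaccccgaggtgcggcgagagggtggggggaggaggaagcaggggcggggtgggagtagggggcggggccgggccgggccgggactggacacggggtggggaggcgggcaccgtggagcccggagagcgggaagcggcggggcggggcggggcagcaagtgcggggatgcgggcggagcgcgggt
Irf8: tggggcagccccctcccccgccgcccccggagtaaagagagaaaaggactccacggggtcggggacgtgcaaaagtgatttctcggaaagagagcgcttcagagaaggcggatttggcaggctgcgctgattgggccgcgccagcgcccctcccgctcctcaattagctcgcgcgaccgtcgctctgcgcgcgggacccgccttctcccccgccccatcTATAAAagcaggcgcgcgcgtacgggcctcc
Irf4: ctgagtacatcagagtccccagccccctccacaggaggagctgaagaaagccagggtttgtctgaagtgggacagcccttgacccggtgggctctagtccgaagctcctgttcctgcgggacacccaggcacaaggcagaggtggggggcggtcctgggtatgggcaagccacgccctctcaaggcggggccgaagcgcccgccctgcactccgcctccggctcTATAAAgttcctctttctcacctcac

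These lie at chr6:129408612-129408861, chr1:191098164-191098413, chr8:120736108-120736357 and chr13:30748983-30749232, all on the plus strand. The Clec9a window was 35.6% G and C and held no CpG, whereas the Batf3, Irf8 and Irf4 windows were 76.0%, 67.2% and 63.6% G and C with 27, 29 and 11 CpG. The median of all 32851 windows was 52.4% with 6 CpG. The other members' windows ranged from 44.8% for Cd209a to 62.4% for Fscn1, leaving aside a further Irf8 start at 54.0%. Counted from the start, with -1 as the base before it, a TATAAA began at -31 in Irf8 and in Fscn1 and at -26 in Irf4. Clec9a and Cd209a held it only on the reverse strand, at -226 and -184, and 12.4% of all windows held it on either strand. The PU.1-IRF composite motif, searched as GGAA and GAAA with any 2 bases between them, was in 2.30% of windows, and the interferon-stimulated response core, searched as GAAA and GAAA with any 2 bases between them, in 2.98%. Neither was found in the windows of the 9 members. The AP-1 letters TGANTCA, found in 6.75% of windows, occurred among the members in that of Zbtb46 alone, at -61. That window, chr2:181424389-181424638 on the minus strand, lies well inside the annotated gene, whose 5' end is at 181459426. The Batf3 window also lies inside its annotated gene, which starts at 191097847. Both strands were searched, the composite motif and the response core can overlap, and the AP-1 letters read the same on both strands. A match describes letters and is not evidence of binding.

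Whether dendritic cell genes differ with dietary cholesterol was asked by comparing HCD with ND. None of the members passed the test. Each of the 9 had a higher log2 mean in HCD, except that under upper-quartile scaling Irf8 was slightly lower (-0.0025), and the ranges of the 2 groups overlapped for every one. Of the 7 members with a mean of at least 0.5 FPKM, the level for testing, 0 were called by limma at an adjusted p of 0.05. Across all 13417 tested genes 0% were called in either direction (lowest adjusted p = 0.138), and 789 had an unadjusted p under 0.05, none of them a member. Limma-voom on reads recovered from the values also called 0 genes, with 689 of 12851 at an unadjusted p under 0.05. Complete separation of HCD from ND values was found for 0 of the 9 members, against 12.1% of tested genes, of which those higher in HCD made up 5.98% of tested genes. A higher mean in HCD was found in 55.7% of tested genes, whose median log2 difference was 0.019. For the 7 tested members the median was 0.079.

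**Figure D1:**
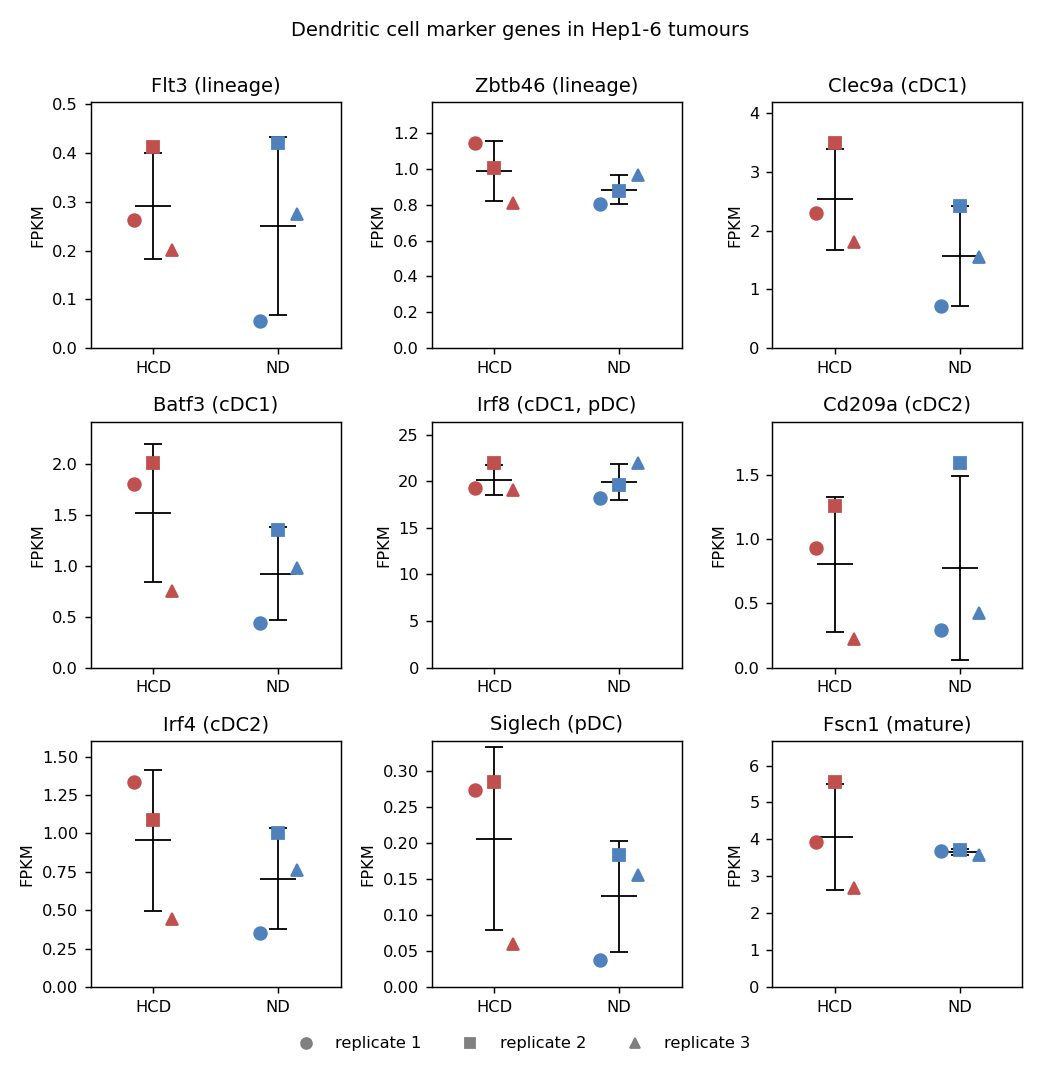
Level of each marker gene in FPKM (vertical axes, from 0) in tumours of HCD and ND mice; symbols are replicates, horizontal bars are means and whiskers are SD (n = 3). HCD and ND values overlap in all 9 panels, and the ND 1 value is the lowest of the 6 in 7 of them.

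The lineage genes came first. Flt3 encodes the receptor tyrosine kinase for FLT3L and lies on chromosome 5 (147330741 to 147400489 on GRCm38, minus strand). It was at 0.263, 0.412 and 0.201 FPKM in HCD 1 to HCD 3 and at 0.0567, 0.420 and 0.275 FPKM in ND 1 to ND 3. These values rest on few reads, for example 26 in HCD 3 (exact 95% Poisson interval 17.0 to 38.1, counting error only) and 8 in ND 1 (3.45 to 15.8). ND 1 lay below the other 5 tumours, and ND 2 and HCD 2 were nearly equal. The difference of 0.055 in log2(FPKM + 1) had an exact two-sided permutation p of 0.9, where 3 against 3 allows no p below 0.1. An annotated antisense gene that overlaps the start of Flt3 was listed at 0 in all 6 libraries.

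Zbtb46 encodes a zinc finger repressor of conventional dendritic cells, which endothelial and some erythroid cells also express (chromosome 2, 181387762 to 181459426, minus strand). Its level was 1.14, 1.00 and 0.809 FPKM in HCD 1 to HCD 3 and 0.806, 0.875 and 0.967 FPKM in ND 1 to ND 3. The highest library was only 1.42 times the lowest, and the groups interleaved. Its log2 difference was 0.074 (SE 0.099, 95% interval -0.17 to 0.31, adjusted p = 0.870).

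Among genes of the type 1 subset, Clec9a had the largest difference of the 9. It encodes DNGR-1, a C-type lectin that binds actin filaments exposed on dead cells (chromosome 6, 129408862 to 129424763, plus strand). Clec9a was at 2.31, 3.49 and 1.81 FPKM in HCD 1 to HCD 3, from 190, 288 and 153 reads. In ND 1 to ND 3 it was at 0.714, 2.42 and 1.56 FPKM, from 66, 257 and 130 reads. ND 2 lay above HCD 1 and HCD 3, so the groups overlapped, while ND 1 was far below the rest. Its means were 2.53 ± 0.862 FPKM in HCD and 1.57 ± 0.855 FPKM in ND (SD, n = 3), with a log2 difference of 0.49 (SE 0.288, 95% interval -0.21 to 1.19, adjusted p = 0.794). The interval spans no change and more than a doubling on this scale. Gm43914, an intronic transcript annotated inside Clec9a on the same strand, was at 3.31, 6.10 and 1.21 FPKM in HCD 1 to HCD 3 and 0.810, 2.76 and 1.14 FPKM in ND 1 to ND 3, and its reads cannot be told apart from unspliced Clec9a RNA. Clec1b also overlaps the first bases of Clec9a.

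Batf3, an AP-1 family factor needed for the type 1 subset (chromosome 1, 191097847 to 191108945, plus strand), followed the same order of libraries at its extremes. It was at 1.80, 2.01 and 0.749 FPKM in HCD 1 to HCD 3 and at 0.438, 1.35 and 0.972 FPKM in ND 1 to ND 3. HCD 3 lay between ND 1 and ND 3. The means of 1.52 ± 0.675 FPKM in HCD and 0.920 ± 0.458 FPKM in ND (SD, n = 3) gave a log2 difference of 0.38 (SE 0.267, 95% interval -0.27 to 1.03, adjusted p = 0.795).

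Irf8 behaved unlike both. It encodes an interferon regulatory factor needed for the type 1 subset and active in plasmacytoid cells, monocytes, macrophages and B cells as well (chromosome 8, 120736358 to 120756694, plus strand). Irf8 stood at 19.2, 22.0 and 19.1 FPKM in HCD 1 to HCD 3 and at 18.1, 19.6 and 22.0 FPKM in ND 1 to ND 3. The highest library was 1.21 times the lowest, although Ptprc, the pan-leukocyte gene CD45, spanned 3.44 times and Csf1r, the receptor of macrophage growth factor, 2.82 times. The log2 difference of Irf8 was 0.014 (SE 0.091, 95% interval -0.21 to 0.23, adjusted p = 0.972). Which cells in the tumour supplied the Irf8 reads was not tested.

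On the type 2 side, Cd209a encodes a DC-SIGN-like lectin of type 2 and monocyte-derived dendritic cells (chromosome 8, 3743397 to 3748984, minus strand). It was at 0.927, 1.25 and 0.226 FPKM in HCD 1 to HCD 3 and at 0.295, 1.59 and 0.425 FPKM in ND 1 to ND 3. The lowest library was HCD 3 and the highest was ND 2, 7.06 times as high, although the HCD mean was the higher one. HCD 3 held 7 reads (95% Poisson interval 2.81 to 14.4) and ND 2 held 62 (47.5 to 79.5). These are the smallest whole numbers that match its values, with an implied length of 1484 bases. A multiple of them with an equally longer gene would match too, so the reads of Cd209a and its level per merged exon length could be higher. A doubled length would exceed the 2803 bases of all its exon records in GENCODE M21, but the authors' annotation is not known. The log2 difference of 0.051 had an SE of 0.338 and a 95% interval of -0.77 to 0.87 (adjusted p = 0.972).

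Cd209a sits among near relatives on chromosome 8, and reads shared between them could be assigned unevenly, so its level is uncertain to that extent. Of these relatives Cd209b, Cd209d and Cd209e averaged 0.160, 0.476 and 0.0843 FPKM over the 6 libraries. Cd209f reached 1.69 FPKM in HCD 2 and 0.0146 FPKM in HCD 3, and Cd209g 2.43 and 0.132 FPKM in the same libraries. Cd209c had another order, with 1.66, 0.906 and 1.67 FPKM in HCD 1 to HCD 3 and 1.71, 1.07 and 1.68 FPKM in ND 1 to ND 3.

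Irf4 encodes the interferon regulatory factor of type 2 cells, which plasma cells and activated T cells express too (chromosome 13, 30749226 to 30766976, plus strand). Its level was 1.34, 1.09 and 0.443 FPKM in HCD 1 to HCD 3 and 0.351, 1.00 and 0.759 FPKM in ND 1 to ND 3. HCD 1 and HCD 2 stood above every ND tumour and HCD 3 below all but ND 1. The log2 difference was 0.19 (SE 0.229, 95% interval -0.37 to 0.74, adjusted p = 0.863).

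Siglech, a receptor gene of the Siglec family that marks mouse plasmacytoid cells (chromosome 7, 55768178 to 55778925, plus strand), was the scarcest by FPKM. It was at 0.274, 0.285 and 0.0592 FPKM in HCD 1 to HCD 3 and at 0.0379, 0.184 and 0.156 FPKM in ND 1 to ND 3. Those values came from 45, 47 and 10 reads in HCD and 7, 39 and 26 reads in ND. HCD 3 and ND 1 were alike within counting error, with 95% Poisson intervals of 4.80 to 18.4 and 2.81 to 14.4 reads. The difference of 0.096 in log2(FPKM + 1) had an exact two-sided permutation p of 0.5.

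Fscn1 encodes fascin, an actin-bundling protein of mature dendritic cells that some carcinoma and endothelial cells also make (chromosome 5, 142960343 to 142973185, plus strand). It was at 3.92, 5.55 and 2.68 FPKM in HCD 1 to HCD 3 and at 3.68, 3.72 and 3.56 FPKM in ND 1 to ND 3. The ND tumours were nearly equal (SD 0.0803 FPKM), while the HCD tumours lay on both sides of them (SD 1.44 FPKM). The log2 difference was 0.079 (SE 0.200, 95% interval -0.41 to 0.56, adjusted p = 0.930).

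Levels between genes depend on the length used for scaling. The lengths implied by the deposited values matched, for 6 of the 9 members, the sum of all distinct exon records in GENCODE M21, in which overlapping exons of different transcripts are counted each time. For Siglech, Batf3 and Fscn1 that length was 2.39, 2.00 and 1.84 times the merged exon length, which lowers their FPKM by those factors. Per kilobase of merged exons the order of mean levels over the 6 libraries ran from Irf8 (24.6 ± 1.97 on the FPKM scale rescaled to that length, SD, n = 6) through Fscn1 (7.08 ± 1.72), Clec9a (2.52 ± 1.15), Batf3 (2.44 ± 1.22), Zbtb46 (1.17 ± 0.162), Irf4 (0.822 ± 0.380), Cd209a (0.737 ± 0.526) and Siglech (0.396 ± 0.248) to Flt3 (0.271 ± 0.136). Irf8 exceeded Fscn1, and Fscn1 exceeded Clec9a, in 6 of 6 libraries. Clec9a exceeded Batf3 in only 4 of 6 libraries and Irf4 exceeded Cd209a in 4 of 6, differences smaller than their SD. Siglech lay above Flt3 in 5 of 6 libraries on this scale but in 1 of 6 by FPKM.

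The members fell into a variable and a steady set. Siglech, Flt3, Cd209a, Clec9a, Batf3 and Irf4 differed 7.52-, 7.41-, 7.06-, 4.88-, 4.58- and 3.80-fold between the highest and the lowest library, whereas Fscn1, Zbtb46 and Irf8 differed 2.07-, 1.42- and 1.21-fold. The variable set holds the genes with the fewest reads, Cd209a with 158, Siglech with 174 and Flt3 with 222 over the 6 libraries. Much of this spread lay inside the groups. HCD 3 and ND 1 were the lowest pair of libraries for 7 of the 9 members (all but Clec9a and Fscn1), against 13.0% of all tested genes. The pair was singled out after the members' values were seen, so this share is descriptive. Of the 7, Flt3 and Siglech were below the level for testing. The order was close for Irf8 (19.1 FPKM in HCD 3, 19.2 in HCD 1) and Zbtb46 (0.809 in HCD 3, 0.875 in ND 2). The lists include members. That this pair was lowest held, among their tested genes, for 7 of 10 type 1 genes and 4 of 6 plasmacytoid genes. Cd8a, also on the T cell list, was among those 7. It held for 3 of 9 type 2 and monocyte-derived genes, 2 of 12 mature genes and 6 of 18 transcription factor genes. It held too for 4 of 5 lineage genes and 5 of 8 growth factor and receptor genes. Of other cell types it held for 7 of 8 T cell, 7 of 12 monocyte and macrophage and 5 of 5 skeletal muscle genes, for 1 of 6 endothelial genes, and for 0 of 5 hepatoma, fibroblast and neutrophil genes each. The pair was also lowest for 3 of 4 pan-leukocyte genes and 2 of 5 B and plasma cell genes. Summed FPKM of the monocyte and macrophage list and of the T cell list was also lowest in ND 1 and HCD 3. The monocyte and macrophage sum ranged from 450 to 1050 in HCD and from 284 to 641 in ND. The T cell sum ranged from 24.8 to 63.1 in HCD and from 8.43 to 36.7 in ND. Some other sums went otherwise. The B and plasma cell and fibroblast sums were highest in ND 1 (80.5 and 1038 FPKM). The pan-leukocyte sum was lowest in HCD 1 (74.5 FPKM), as was Cd53, the most abundant gene in that sum (34.5 FPKM). The part of other cell types in the members' values was not tested, and in bulk RNA fewer dendritic cells and less RNA per cell cannot be told apart. Skeletal muscle genes, summed over 5 genes, ranged from 5.93 to 739 FPKM in HCD and from 4.64 to 628 FPKM in ND, being abundant in HCD 1 and ND 2.

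**Figure D2:**
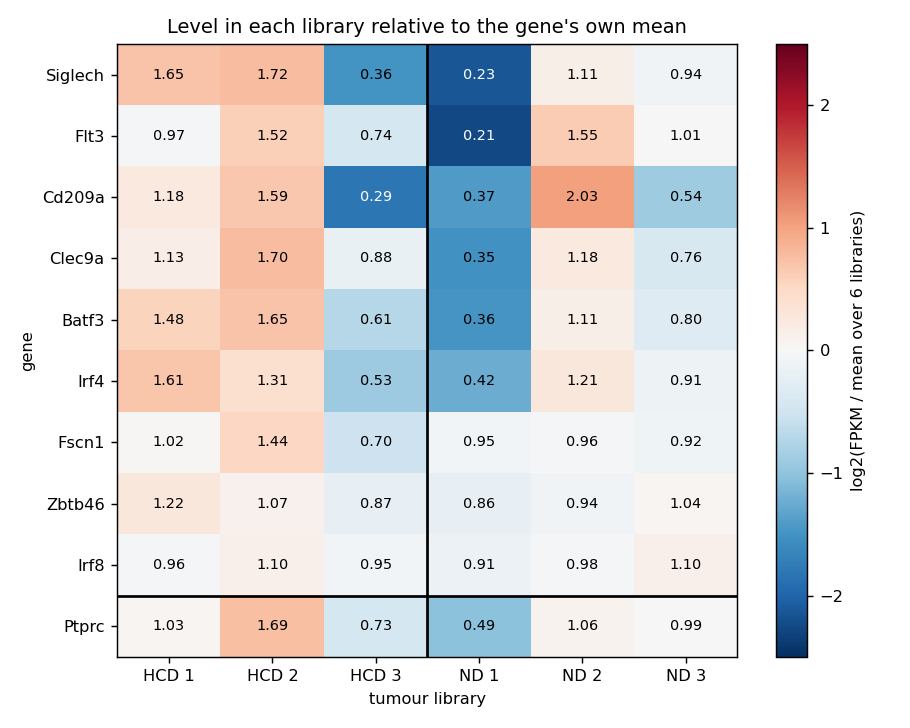
Level of each marker gene and of Ptprc in each of the 6 libraries (columns) divided by that gene's mean over the libraries; printed numbers are the linear ratios, colours their log2. ND 1 and HCD 3 are the lowest pair for 7 of the 9 marker genes. These include Irf8, whose row is nearly flat with a 1.21-fold range.

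Members were also set against Ptprc and against each other. Per 1000 Ptprc reads, Clec9a had 67.2, 62.0 and 74.2 reads in HCD 1 to HCD 3 and 43.7, 68.7 and 47.4 in ND 1 to ND 3. This narrowed its range from 4.88-fold to 1.70-fold, with ND 2 inside the HCD values. Batf3 had 41.4, 28.2 and 24.2 reads per 1000 Ptprc reads in HCD and 21.2, 30.2 and 23.4 in ND, a 1.96-fold range. Cd209a had a 4.88-fold range on this measure, against 7.06-fold in FPKM, with 9.91, 8.18 and 3.39 in HCD and 6.61, 16.6 and 4.74 in ND. For Irf8 the division widened the range to 2.84-fold, with 1200, 837 and 1680 in HCD and 2380, 1190 and 1430 in ND. The log2 ratio of Clec9a to Ptprc differed by 0.14 between the diets (exact permutation p = 0.5), and by 0.046 without ND 3, 0.050 without HCD 3 and 0.22 without HCD 2.

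**Figure D3:**
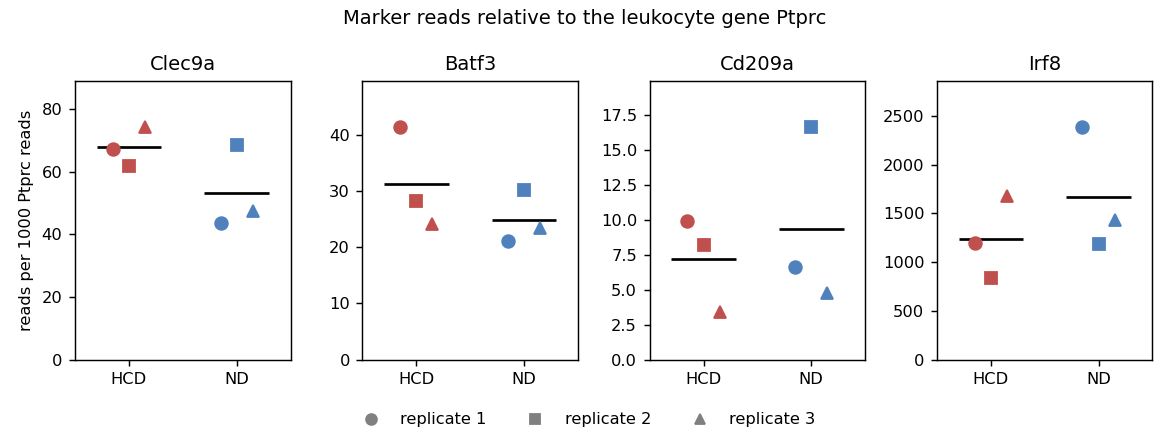
Reads of 4 marker genes per 1000 reads of Ptprc in HCD and ND tumours (vertical axes from 0; symbols are replicates, lines are means). Clec9a spans 43.7 to 74.2, and the groups overlap in each panel.

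The balance between subset genes was compared too. On the FPKM scale Clec9a was 2.49, 2.78 and 8.02 times Cd209a in HCD 1 to HCD 3 and 2.42, 1.52 and 3.67 times Cd209a in ND 1 to ND 3. The log2 ratio, with 1 added to each value, averaged 0.99 ± 0.208 in HCD and 0.55 ± 0.255 in ND (SD, n = 3; exact permutation p = 0.2). HCD 3, with the lowest Cd209a of all, had the highest ratio, and ND 2, with the highest Cd209a, the lowest. The Irf8 to Irf4 ratio averaged 3.46 ± 0.343 in HCD and 3.63 ± 0.241 in ND on the log2 scale (exact permutation p = 0.6). That difference of -0.17 was -0.0021 without HCD 1, -0.077 without ND 1, -0.31 without ND 2 and -0.35 without HCD 3. Batf3 relative to Irf4, singled out after its values were seen, was the only one of 31 ratios to reach the smallest exact p that the design allows, 0.1, with an adjusted p over the ratios of 0.93. It stood at 886, 1210 and 1110 Batf3 reads per 1000 Irf4 reads in HCD 1 to HCD 3 and at 821, 883 and 842 in ND 1 to ND 3, so that the nearest values of the 2 groups almost met. Its log2 difference of 0.19 was 0.11 without HCD 2.

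Companion genes of the lineage gave no call either. Of the 5 tested lineage genes all had a higher mean in HCD (median log2 difference 0.24), and 0 passed. Itgax, the integrin CD11c that macrophages share, was at 17.8, 25.4 and 13.9 FPKM in HCD 1 to HCD 3 and at 7.49, 18.3 and 12.6 FPKM in ND 1 to ND 3, with a log2 difference of 0.57 (adjusted p = 0.794). Cd74, which encodes the chaperone of MHC class II molecules, differed by 0.64 (adjusted p = 0.794). Of 10 tested type 1 genes, 9 had a higher and 1 a lower mean (median 0.18, 8 and 2 under upper-quartile scaling), and 0 passed. The largest difference of these, 0.61 (limma adjusted p = 0.796), was that of Cd8a, named after its values were seen. Cd8a is also on the T cell list, and the part of T cells in the type 1 median was not tested. Xcr1, the chemokine receptor that defines this subset, was at 0.805, 1.64 and 0.515 FPKM in HCD 1 to HCD 3 and at 0.393, 1.32 and 0.577 FPKM in ND 1 to ND 3 (log2 difference 0.17, adjusted p = 0.892). Cadm1, an adhesion molecule with wide expression, averaged 6.09 FPKM in HCD and 6.90 FPKM in ND.

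For the type 2 and monocyte-derived list, 4 of 9 tested genes had a higher mean and 5 a lower one (median -0.10). Its most abundant genes, Tmem176b and Epcam, averaged 34.6 and 21.7 FPKM in HCD and 37.1 and 26.8 FPKM in ND, and Epcam is also an epithelial gene. The largest difference of the list, 0.54 (limma adjusted p = 0.794), was that of Sirpa, named after its values were seen. The part of other cells in this list's values was not tested. Of the plasmacytoid list 6 of 13 genes reached the level for testing, 5 with a higher mean in HCD (median 0.18). Siglech and Spib were among those below it. Cox6a2 and Lag3, named after their values were seen, had differences of 0.85 and 0.63 (adjusted p = 0.859 and 0.795). Cox6a2, which striated muscle also expresses, was at 12.3, 3.02 and 0.351 FPKM in HCD 1 to HCD 3 and at 0.129, 5.66 and 0.642 FPKM in ND 1 to ND 3. The skeletal muscle sum in the same order was 739, 71.1 and 5.93 FPKM in HCD and 4.64, 628 and 10.8 FPKM in ND. Lag3 is also a receptor of activated T cells, whose list sums are given above. The part of muscle and T cells in this list's median was not tested. Bst2, an interferon-inducible surface protein, differed by 0.33 (adjusted p = 0.806). Tcf4, the plasmacytoid E-protein that many other cells express, was at 9.81 ± 0.844 FPKM in HCD and 9.65 ± 0.342 FPKM in ND (SD, n = 3; log2 difference 0.019, adjusted p = 0.957).

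The mature list was evenly divided, with 6 of 12 tested genes higher in HCD and a median of 0.0028 that was -0.0059 and -0.011 under median-ratio and upper-quartile scaling. Ccr7, the receptor that guides mature cells to lymph nodes, was at 2.16 ± 0.118 FPKM in HCD and 1.76 ± 0.590 FPKM in ND (SD, n = 3; log2 difference 0.21, adjusted p = 0.799). Ccl22, a chemokine of mature cells, differed by 0.21 (adjusted p = 0.821). Cacnb3 and Ccl5, the most abundant genes of that list, averaged 21.8 and 20.4 FPKM in HCD and 21.4 and 13.2 FPKM in ND. Ccl5 ranged 9.14-fold, from 3.46 FPKM in ND 1 to 31.7 FPKM in HCD 2 (log2 difference 0.74, limma adjusted p = 0.825). Which cells supplied the Ccl5 reads was not tested. Growth factor and receptor genes had higher means in 8 of 8 tested cases (median 0.11; 7 of 8 under upper-quartile scaling), with Flt3l, the ligand of FLT3, at 5.93 ± 0.961 FPKM in HCD and 5.15 ± 0.880 FPKM in ND (SD, n = 3; adjusted p = 0.811). Ltbr and Csf1r, the most abundant genes of that list, differed by 0.011 and 0.35 (adjusted p = 0.971 and 0.816). Of 18 tested transcription factor genes 12 had a higher mean and 6 a lower one (median 0.056; 11 and 7 under upper-quartile scaling). Id2, which conventional cells need but tumour cells express too, was at 281 ± 47.5 FPKM in HCD and 299 ± 33.1 FPKM in ND (SD, n = 3, log2 difference -0.097, adjusted p = 0.879). Klf4, the next most abundant of that list, averaged 29.4 FPKM in HCD and 32.9 FPKM in ND (log2 difference -0.18, adjusted p = 0.863). In the interferon regulatory factor family, 8 of 9 genes had a higher mean in HCD (median 0.11), or 7 under median-ratio and 6 under upper-quartile scaling. Several genes stand in more than 1 list, and the members are part of them.

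**Figure D4:**
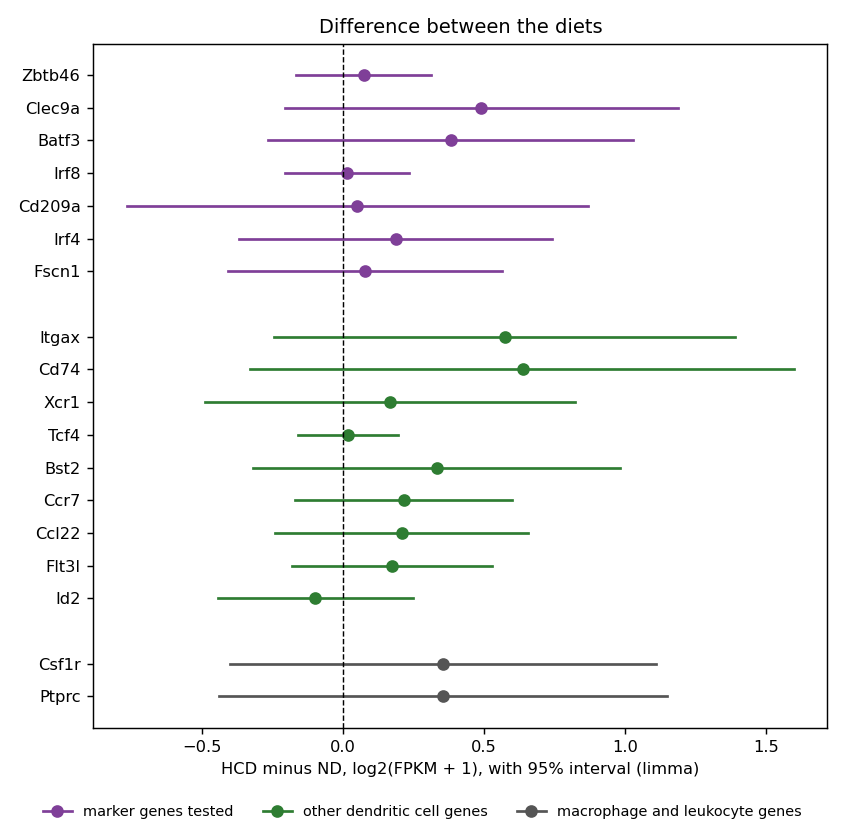
HCD minus ND difference in log2(FPKM + 1) from limma (points) with 95% intervals (lines) for the 7 tested marker genes, other dendritic cell genes, and Csf1r and Ptprc. Every interval includes 0, and Clec9a has the largest difference of the marker genes, 0.49.

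Markers of other cells set these values in context. Hepatoma genes (Alb, Afp, Ttr, Apoa1 and Rbp4) summed to between 1550 and 2190 FPKM in HCD and between 1680 and 2050 FPKM in ND. Pan-leukocyte genes summed to 74.5 to 125 FPKM in HCD and 75.5 to 103 FPKM in ND, with higher means in 3 of 4 tested genes (median 0.395). Cd53, the most abundant gene in that sum, had the lower mean in HCD, 49.2 FPKM against 61.0 FPKM in ND. Endothelial genes summed to 62.9 to 112 FPKM in HCD and 52.1 to 65.5 FPKM in ND, with higher means in 6 of 6 (median 0.352). Both lists had 0 calls. The T cell list had higher means in 8 of 8 tested genes (median 0.66) and the monocyte and macrophage list in 11 of 12 (median 0.38), with 0 calls. Neutrophil genes summed to 37.3 to 39.6 FPKM in HCD and 39.8 to 101 FPKM in ND, with lower means in 5 of 5 tested genes and 0 calls. B and plasma cell genes summed to 61.8 to 73.0 FPKM in HCD and 71.3 to 80.5 FPKM in ND. Of 5 tested, 2 had a higher and 3 a lower mean (median -0.115). Fibroblast genes had a higher mean in 1 of 5 tested cases, hepatoma genes in 3 of 5 and skeletal muscle genes in 5 of 5. These lists had 0 calls. None of the listed marker genes was at 0 in all libraries.

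Likeness of profile was measured as the root mean square difference between log2(FPKM + 1) profiles over the 6 libraries, each centred on its own mean, among 10911 tested genes. Adding 1 compresses low values, so a neighbour need not share a gene's fold range. Nearest to Clec9a were Psap, which encodes the lysosomal protein prosaposin (0.046), and Dok3, an adaptor of myeloid and B cells (0.053), where Clec9a itself varied by 0.43 around its mean. Psap ran from 161 FPKM in ND 1 to 431 FPKM in HCD 2, and Clec9a from 0.714 to 3.49 FPKM in the same libraries. Likeness with another pseudocount was not tested. Batf3 lay nearest to Arl5c (0.062) and Fbln5 (0.064), Irf4 to Apex1 (0.064) and Peg13 (0.070), and Cd209a to Aplnr (0.14) and Klri1 (0.15). For the steadier genes the neighbours were Elmo2 (0.023) and Trim26 (0.028) for Irf8, Mical2 (0.018) and Setd1b (0.025) for Zbtb46, and Matn2 (0.038) and Grk5 (0.062) for Fscn1.

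Most of these differences moved by more than 1.5 times when a single library was left out. The Clec9a difference of 0.49 became 0.23 when ND 1 was left out and 0.73 when ND 2 was. For Batf3 it was 0.38 with all libraries, 0.19 when ND 1 was left out, 0.23 when HCD 2 was and 0.62 when HCD 3 was. Cd209a, at 0.051 with all libraries, took values from -0.14 (ND 1 left out) to 0.36 (ND 2 left out), with -0.13 when HCD 2 was left out and 0.31 when HCD 3 was. Irf4, at 0.19 with all libraries, ranged between 0.029 (ND 1 left out) and 0.39 (HCD 3 left out). Clec9a, Batf3, Zbtb46, Irf4 and Siglech had a higher log2 mean in HCD in all 6 of these subsets, and Flt3, Irf8, Cd209a and Fscn1 did not. Without both muscle-rich tumours, HCD 1 and ND 2, Clec9a differed by 0.76 and Batf3 by 0.45, and the lowest adjusted p of a member was 0.727.

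**Figure D5:**
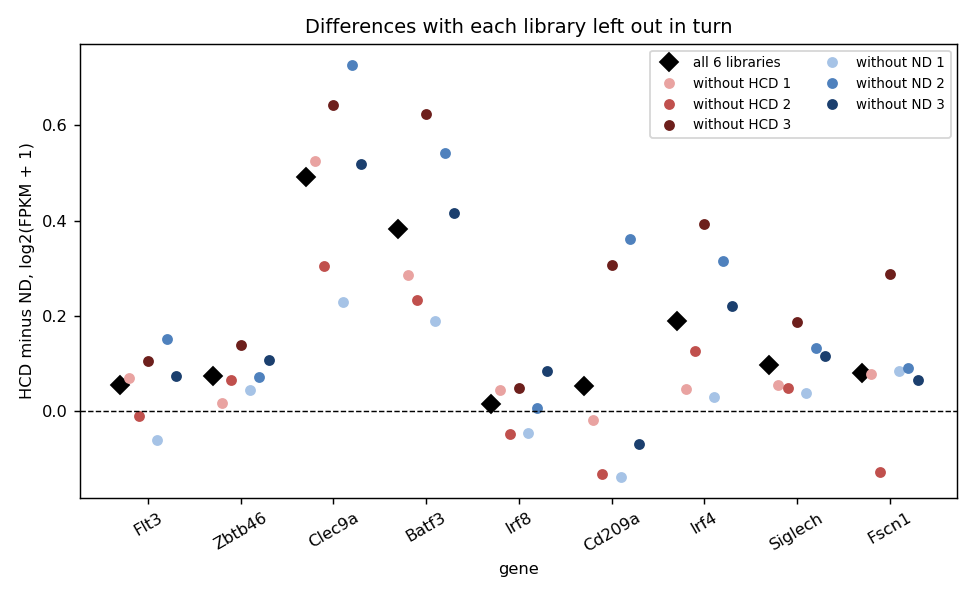
HCD minus ND difference in log2(FPKM + 1) of the 9 marker genes with all 6 libraries (black diamonds) and with each library left out in turn (circles). Points of Flt3, Irf8, Cd209a and Fscn1 lie on both sides of 0, and those of Clec9a range from 0.23 to 0.73.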

How the data were processed

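RNA of 6 tumours was sequenced from paired-end libraries, and the authors deposited 1 table of FPKM values, per the file headers. Build mm10 and the programs CASAVA 1.8, TopHat2 2.0.9, HTSeq and edgeR are listed, without roles, in the submitters' processing notes. The annotation release and use of strand are not given in the sources used here. Each column of values was matched to a sample by its title.

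Testing was limited to genes averaging 0.5 FPKM or more, with limma 3.58.1 (R 4.3.3) on log2(FPKM + 1), with a variance trend, diet as the only term, two-sided tests and Benjamini-Hochberg adjustment over 13417 genes at 0.05. This scale understates changes of low genes. Members below that level, and ratios, had exact permutation tests. The limma step was tested on simulated data.

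Each FPKM is a read number divided by gene length and library size. Sizes of 20351637 to 26228073 fragments and a length per gene made all 6 values whole, within 0.0008 of a read, for 95.78% of tested genes, against 0.07% of 1500 decoys with each value multiplied by a random factor. These reads gave depth, merged-exon levels and limma-voom. The implied length equalled the M21 exon record sum in 69.35% of genes so solved. Coordinates and lengths are from GENCODE M21 (GRCm38, which mm10 denotes; 34267 of 34745 IDs found), and start-region sequences from RefSeq on GRCm38.p6 (9 of 9 members matched).

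The members and marker lists were chosen with earlier results of these data known. Named were the members, a fixed set of companions and the 2 most abundant genes of the lineage, subset, mature, growth factor and transcription factor lists. Lists of other cell types are given mainly as sums and counts. The other Siglec and fascin genes are not reported. Alternatives comprised pseudocount, filter, trend, scaling, replicate block, voom and leaving libraries out.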

Additional observations from a re-analysis of the deposited data

How the results depend on the processing

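No member was called under any of the settings run: pseudocount 0.1, no filter, a filter of 1 FPKM in 3 or more samples, no variance trend, median-ratio and upper-quartile scaling, replicate block, limma-voom, and leaving out each library or HCD 1 and ND 2 together. The lowest adjusted p of a member over these was 0.554, without ND 2. Genes called lower numbered 0 to 1 when libraries were left out in turn (S100a9, without ND 2, named after its values were seen), and genes called higher 0 throughout. Upper-quartile scaling turned Irf8 to -0.0025, and omitting HCD 1 and ND 2 turned Tcf4 to -0.023. With each library left out in turn, differences ranged from -0.062 to 0.15 for Flt3, -0.049 to 0.084 for Irf8, -0.14 to 0.36 for Cd209a, -0.13 to 0.29 for Fscn1, -0.057 to 0.38 for Xcr1, -0.22 to 0.028 for Id2 and -0.045 to 0.053 for Tcf4; the cause was not tested. Low genes had larger differences with a pseudocount of 0.1, which shrinks them less: 0.29 for Flt3 (0.055 with 1), 0.40 for Siglech (0.096), 0.12 for Cd209a (0.051), 0.37 for Irf4 (0.19), 0.67 for Batf3 (0.38), 0.76 for Clec9a (0.49) and 0.13 for Zbtb46 (0.074). Limma-voom gave 0.78 for Clec9a, 0.72 for Batf3, 0.40 for Irf4 and 0.15 for Zbtb46. The log2 ratio difference with a pseudocount of 0.1 was 0.33 for Clec9a to Ptprc, -0.36 for Irf8 to Irf4 and 0.30 for Batf3 to Irf4. Same-numbered HCD and ND samples had deviations from their group means correlated at -0.19, 0.14 and 0.059, so the numbers were not taken as pairs; with the replicate number as a block 0 genes and 0 members were called, and Clec9a differed by 0.49. Flt3, Siglech and Cd209a rest on as few as 8, 7 and 7 reads in a library, which limits what can be seen.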
